A study of Mus musculus with 8 samples.

Results

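Retinoic acid is made, carried, sensed and destroyed by a small set of proteins, and 10 of their genes were followed here in mouse ovarian follicle cells: Stra6, Aldh1a1, Aldh1a2, Aldh1a3, Cyp26a1, Cyp26b1, Crabp2, Rara, Rarb and Rarg. They were chosen for these roles, not for their measured values, and were found on the array by their Entrez gene IDs. All 10 are among the 24232 genes measured. Of these, 8 passed the filter on dim genes, as did 15637 genes in all, and the same 8 were well above background on all 8 arrays.

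Cells take up vitamin A (retinol) from the blood, where STRA6 is the membrane receptor for its carrier protein. Retinol is oxidised first to retinaldehyde, in large part by RDH10, and then to retinoic acid by the ALDH1A dehydrogenases. CRABP2 carries retinoic acid to the nucleus, where the receptors RARA, RARB and RARG, each paired with an RXR partner, switch genes on. CYP26 enzymes break it down. In the fetal gonads, retinoic acid is widely held to let germ cells of the ovary enter meiosis, whereas CYP26B1 removes it in the testis.

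The cells came from preantral follicles of Swiss female mice aged 8 weeks, are described as mostly granulosa cells, and were cultured for 9 days, the last part in hormone-free medium. Each replicate started from its own pool of 5 mice. All cells were transfected with a pDsRed plasmid and with 12 pmol of siRNA, either a control siRNA or a pool against Foxl2, a transcription factor of granulosa cells, for 24 h, and received vehicle or 100 nM 17β-estradiol (E2) for the last 10 h before lysis. The sample protocol counts these hours within the 24 h and the text of the study places them after. Each siRNA was thus combined with each treatment, which makes 4 groups of 2 arrays. The model is limited to a brief knockdown in cultured cells that still hold other cell types of the follicle.

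The values below are log2 scaled signals, that is, the log2 of the spot intensity after scaling by the 75th percentile of the array, so that a difference of 1 is a factor of 2. A gene was called when its limma adjusted p was under 0.05 over the 15637 genes tested. Arrays with the same replicate number moved together, so the fit was also made with that number as a block. The block is named where it changed the call of a member. The signal of a probe also depends on its sequence, so levels are compared between arrays and never between genes. Since whole cultures were measured, fewer cells of a type and less RNA per cell cannot be told apart.

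The target of the siRNA was not lowered at the level of the gene. Foxl2 gave 13.46 and 13.01 in the vehicle controls, 12.94 and 12.76 in the E2 controls, 13.41 and 13.39 with FOXL2 siRNA and vehicle, and 13.12 and 12.96 with FOXL2 siRNA and E2. It has 2 probes. The brighter, A_55_P2037732, changed by 0.18 (SE 0.10, adjusted p = 0.364), to 113% of the control. The dimmer, A_55_P2041668, changed by -0.97 (SE 0.19, adjusted p = 0.0199), to 51.1% of the control, where 7.98% of all 31486 probes tested were called. Every direction below therefore rests on the array labels, and "FOXL2 siRNA" stands for the arrays labelled so. In the same comparison Fst, the granulosa cell gene of follistatin, fell by 2.02 (SE 0.13, adjusted p = 0.000226) and Sox9, a Sertoli cell gene, rose by 2.05 (SE 0.15, adjusted p = 0.000302). The E2 status of the arrays also follows their titles. On the control siRNA arrays 3 genes were called lower with E2 and 0 higher, and with FOXL2 siRNA 2 were called higher and 0 lower. The few genes called with control siRNA thus ran opposite to the activation that the study describes for most of its own E2 target genes. The study chose its targets by another rule, a change of at least 1 that exceeds 2 times the sum of both SDs. By that rule 71 genes passed here for E2 with control siRNA, and their directions are not given. The doubt about these labels thus rests on few genes. Values with the vehicle and E2 labels of the control arrays exchanged are given beside the results by treatment. This alternative was chosen after seeing the data. Changes over both treatments are the same either way. On each array 51.3 to 55.5% of the probes were well above background and none was saturated. All arrays were on 1 slide, so no batch could be tested, and the number of arrays limits the precision.

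Receptors and enzymes differed first in whether they were seen at all. Rarb, the receptor gene that retinoic acid itself induces in many cells, has 3 probes, and none of them was well above background on any array. Its signal lay between 1.48 and 2.42 on the 8 arrays, below the weakest signals that the scanner software accepted, which were 3.48 to 3.89 depending on the array. Cyp26a1, which encodes the enzyme that retinoic acid induces to destroy itself, lay between 1.53 and 2.01 on 7 arrays. On the remaining one, replicate 1 of control siRNA with E2, it reached 5.46 and was well above background, while replicate 2 of that group gave 1.75. Neither gene was tested, and no fold change is given for them.

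The start sites of Rarb and Cyp26a1 are shown because they carry the arrangement of a retinoic acid response element. The receptors bind a pair of half-sites in the same direction, and 5 bases between them is a classical spacing. RefSeq promoter windows were found for 8 of the 10 members, 16 windows in all on build GRCm38.p6, and the 250 bases before each transcript start were searched on both strands. No window was found for Crabp2, which is called below, or for Aldh1a3, so neither was searched. A half-site was taken as AGGTCA or GGGTCA or AGTTCA or GGTTCA, which other hormone receptors also bind. The core bound by forkhead factors, the family of FOXL2, was taken as GTAAACA or ATAAACA or GTAAATA or ATAAATA. No half-site overlapped a forkhead core in the windows shown. Each sequence is given 5′ to 3′ in the direction of the gene and ends at the base before the transcript start, with every half-site and forkhead core in capitals.
Rarb, chr14:16575477-16575726, minus strand: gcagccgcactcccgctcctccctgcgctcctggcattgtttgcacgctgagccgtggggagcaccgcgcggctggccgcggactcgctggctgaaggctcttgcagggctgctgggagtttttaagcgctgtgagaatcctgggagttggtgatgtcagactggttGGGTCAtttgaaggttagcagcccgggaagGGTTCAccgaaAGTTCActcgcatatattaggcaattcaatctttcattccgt
Cyp26a1, chr19:37697558-37697807, plus strand: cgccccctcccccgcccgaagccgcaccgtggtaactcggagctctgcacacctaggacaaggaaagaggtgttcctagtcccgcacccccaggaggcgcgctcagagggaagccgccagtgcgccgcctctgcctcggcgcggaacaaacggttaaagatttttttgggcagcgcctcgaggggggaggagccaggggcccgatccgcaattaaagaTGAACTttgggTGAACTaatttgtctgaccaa
Aldh1a1, chr19:20601718-20601967, plus strand: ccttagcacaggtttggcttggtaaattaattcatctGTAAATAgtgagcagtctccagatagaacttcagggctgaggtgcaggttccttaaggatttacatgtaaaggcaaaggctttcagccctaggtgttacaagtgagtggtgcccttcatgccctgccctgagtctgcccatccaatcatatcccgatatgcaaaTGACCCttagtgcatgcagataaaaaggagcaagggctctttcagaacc
Rarg, chr15:102257523-102257772, minus strand: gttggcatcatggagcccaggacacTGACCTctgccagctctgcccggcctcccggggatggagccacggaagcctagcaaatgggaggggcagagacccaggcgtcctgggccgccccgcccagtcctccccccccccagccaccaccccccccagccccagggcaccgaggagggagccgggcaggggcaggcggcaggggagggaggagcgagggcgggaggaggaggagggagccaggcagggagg

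In Rarb, a pair of half-sites 5 bases apart starts at -53, counted from the transcript start. In Cyp26a1 such a pair lies on the opposite strand and starts at -32. Among all 32851 promoter windows of the same length, 29 or 0.0883% hold such a pair, and among the 16 windows of the members these 2 do. Of the windows of the genes called below, 1 each of Aldh1a1 and Rarg is shown because it holds a match. The other window of each holds none, and neither do 3 of the 4 windows of Stra6, which is also called and is not shown. Aldh1a1 holds a single half-site at -49 and 1 forkhead core, GTAAATA, at -213. Rarg holds 1 half-site, at -225. Such single matches are common, since 38.6% of all windows hold at least 1 half-site and 13.6% at least 1 forkhead core. Of the members' windows, 5 of 16 hold a half-site and 2 of 16 a forkhead core, the second being one of the 4 windows of Stra6. A match in these letters is a description of the sequence and no measure of binding.

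**Figure D1:**
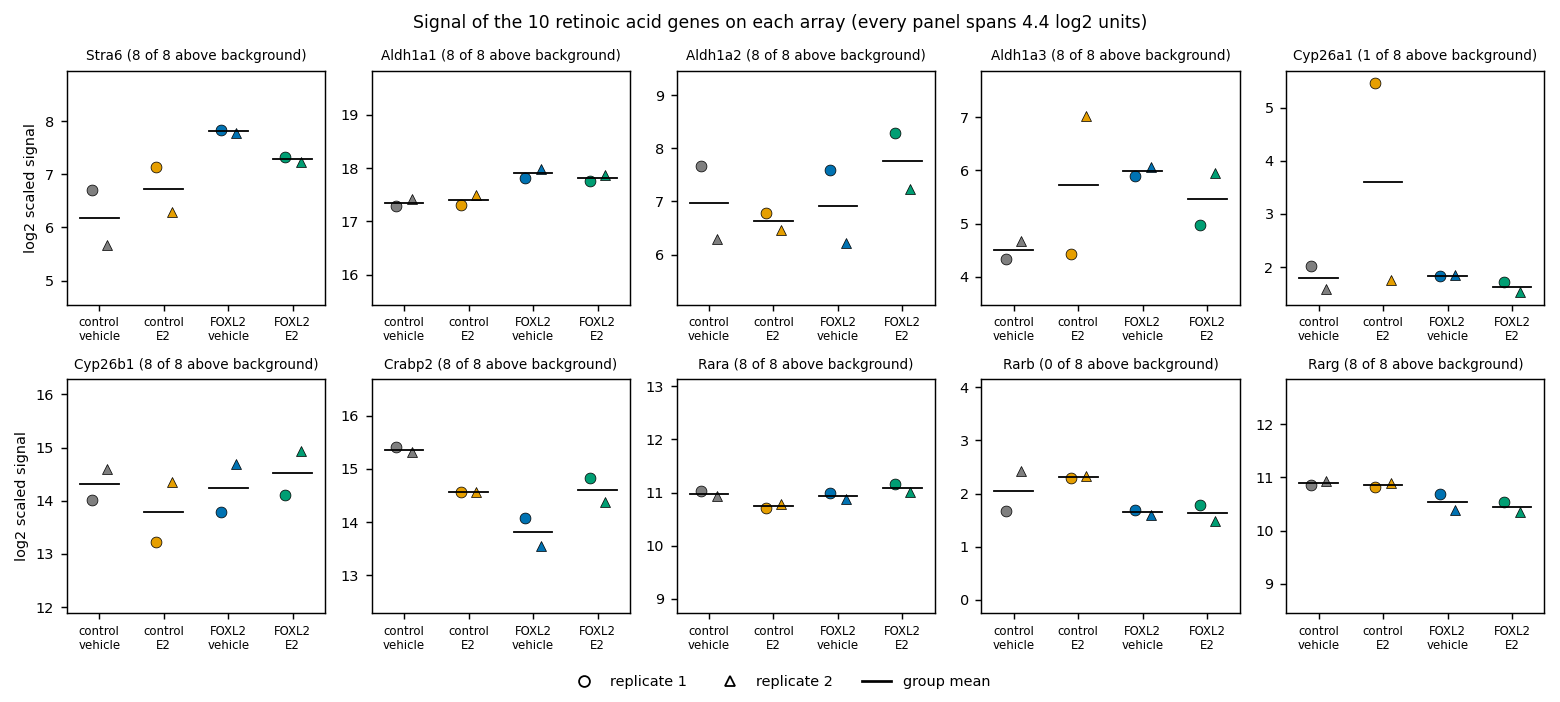
Log2 scaled signal of each of the 10 genes on each array, by group of siRNA and treatment (circle, replicate 1; triangle, replicate 2; line, group mean). All panels span the same number of log2 units around their own centre. Rarb stays between 1.48 and 2.42, 1 array of Cyp26a1 stands apart at 5.46, Stra6 and Aldh1a1 lie higher on all arrays labelled FOXL2 siRNA, and Rarg lies lower.

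The next question was whether FOXL2 siRNA changed the pathway. Taken over both treatments, 4 of the 8 members tested were called, where 12.6% of all genes were. Stra6 and Aldh1a1, which act in uptake and synthesis, rose, while Crabp2 and Rarg, which act in transport to the nucleus and in sensing, fell. The median change of the 8 members was 0.41, beside -0.0026 over all genes tested. By treatment it was -0.05 with vehicle and 0.38 with E2, beside -0.0097 and 0.0014 over all genes, so the members had no common direction with vehicle. Comparisons with vehicle, with E2 and over both share arrays and are not independent of each other.

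Stra6, the receptor for retinol uptake, gave 6.70 and 5.66 in the controls with vehicle, and 7.13 and 6.30 in those with E2 (replicates 1 and 2, here and below). With FOXL2 siRNA it gave 7.83 and 7.78 with vehicle and 7.33 and 7.24 with E2. All 4 arrays labelled FOXL2 siRNA were above all 4 others. The rise was 1.10 over both treatments (SE 0.26, adjusted p = 0.0299), a factor of 2.14. With vehicle it was 1.63 (SE 0.36, adjusted p = 0.0401), a factor of 3.09. With E2 the change was 0.57 (95% interval -0.27 to 1.42, adjusted p = 0.506). Exchanging the E2 labels of the controls gave 1.09 and 1.10 for vehicle and E2, neither of them called without the block (adjusted p = 0.153 and 0.155). Both of these changes were called with the block (adjusted p = 0.00489 and 0.00476). The spread between the control replicates was wide, at 0.73 (SD, n = 2) with vehicle against 0.04 with FOXL2 siRNA and vehicle. The call over both treatments held when replicate 1 of the vehicle controls or replicate 1 of the E2 controls was left out, and was lost without any 1 of the other 6 arrays, with changes of 0.84 to 1.12 and adjusted p of 0.0541 to 0.0940. The call with vehicle was lost without any 1 of the 4 arrays labelled FOXL2 siRNA and without replicate 2 of the vehicle controls (changes of 1.11 to 1.65, adjusted p of 0.0586 to 0.163).

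Aldh1a1, which encodes one of the dehydrogenases that make retinoic acid, gave 17.28 and 17.43 in the controls with vehicle, and 17.31 and 17.49 in those with E2. With FOXL2 siRNA it gave 17.82 and 17.99 with vehicle and 17.76 and 17.86 with E2. Again all 4 arrays labelled FOXL2 siRNA were above the others, although the shift was small. It was 0.48 over both treatments (SE 0.076, adjusted p = 0.00606), a factor of 1.40, and stayed called without any 1 of the 8 arrays. With vehicle it was 0.55 (SE 0.11, adjusted p = 0.0247). That call was lost when replicate 1 of the vehicle controls or either vehicle array labelled FOXL2 siRNA was left out, at 0.47 to 0.63 (adjusted p of 0.0696 to 0.171). With E2 the change was 0.41 (95% interval 0.16 to 0.66, adjusted p = 0.0844), and it was called with the replicate number as a block (adjusted p = 0.00513).

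Neither of the other dehydrogenase genes of the synthesis step was called. Aldh1a2 gave 7.67 and 6.29 in the vehicle controls, 6.78 and 6.47 in the E2 controls, 7.59 and 6.22 with FOXL2 siRNA and vehicle, and 8.29 and 7.23 with FOXL2 siRNA and E2. Replicate 1 was the higher in every group, and the arrays with FOXL2 siRNA and E2 were the highest of their replicate number. Its change over both treatments was 0.53 (95% interval -0.42 to 1.49, adjusted p = 0.471). With the block, the change over both treatments (adjusted p = 0.0231) and the one of 1.14 with E2 (adjusted p = 0.00369) were called. Aldh1a3 gave 4.33 and 4.67 in the vehicle controls, 5.90 and 6.07 with FOXL2 siRNA and vehicle, and 4.98 and 5.95 with FOXL2 siRNA and E2. In the E2 controls its replicates lay far apart, at 4.43 and 7.03. Its change with vehicle was 1.48 (95% interval -0.23 to 3.19, adjusted p = 0.328), not called by limma over all groups but called with the block (adjusted p = 0.0375) and when only the groups compared were fitted (adjusted p = 0.0492). With the control labels exchanged it was 0.26 (adjusted p = 0.893), and the change with E2 went from -0.26 to 0.96 (adjusted p = 0.576). Leaving out replicate 2 of the E2 controls moved its change over both treatments from 0.61 to 1.26, which was called (adjusted p = 0.0466). Leaving out their replicate 1 moved it to -0.039.

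Cyp26b1, the breakdown enzyme that was detected, gave 14.02 and 14.59 in the controls with vehicle, and 13.23 and 14.35 in those with E2. With FOXL2 siRNA it gave 13.79 and 14.70 with vehicle and 14.11 and 14.93 with E2. Replicate 2 was above replicate 1 in every group, by 0.57 to 1.12. The change over both treatments was 0.33 (95% interval -0.41 to 1.07, adjusted p = 0.575), and with E2 it was 0.72 (95% interval -0.33 to 1.77, adjusted p = 0.499). Within each replicate number, the changes with E2 were 0.87 and 0.58. With the control labels exchanged, the change with E2 was 0.21 (block adjusted p = 0.247) and that with vehicle went from -0.06 to 0.45 (block adjusted p = 0.0148). With the block, both the change over both treatments (adjusted p = 0.0078) and that with E2 (adjusted p = 0.000763) were called.

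Crabp2, the carrier of retinoic acid to its receptors, fell over both treatments and with vehicle. It gave 15.41 and 15.32 in the vehicle controls, and 14.07 and 13.55 with FOXL2 siRNA and vehicle. With E2 it gave 14.57 and 14.57 with control siRNA, and 14.83 and 14.39 with FOXL2 siRNA. With vehicle the groups did not overlap and the fall was to 34.1% of the control (change of -1.55, SE 0.19, adjusted p = 0.0043). With E2 the groups overlapped, and the change was 0.04 (95% interval -0.40 to 0.47, adjusted p = 0.953), a value that turned to -0.18 without replicate 1 of FOXL2 siRNA with E2. Over both treatments the change was -0.76 (SE 0.13, adjusted p = 0.00953). The calls with vehicle and over both treatments held without any 1 of the arrays, labels as deposited. In order of level, the vehicle controls stood highest and the vehicle arrays labelled FOXL2 siRNA lowest, while both groups with E2 lay between them and overlapped. Exchanging the E2 labels of the controls gave -0.76 for either treatment (adjusted p = 0.0685 and 0.0689), so that the call with vehicle was lost and both values were the same. Both were called with the block (adjusted p = 0.000893 and 0.000894).

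Of the receptors, Rarg fell and Rara did not pass the test. Rarg gave 10.86 and 10.93 in the vehicle controls, 10.82 and 10.89 in the E2 controls, 10.69 and 10.38 with FOXL2 siRNA and vehicle, and 10.54 and 10.35 with FOXL2 siRNA and E2. Its 4 arrays labelled FOXL2 siRNA were below all others. The change was -0.38 over both treatments (SE 0.088, adjusted p = 0.0284), to 76.7% of the control. The call held when replicate 1 of either group labelled FOXL2 siRNA was left out, and was lost without any 1 of the other 6 arrays, at -0.40 to -0.30 (adjusted p of 0.0533 to 0.0993). By treatment, the changes of -0.36 with vehicle and -0.41 with E2 were called with the block only (adjusted p = 0.0348 and 0.0217). After the exchange they were -0.32 and -0.45 (block adjusted p = 0.0587 and 0.0133). Rara gave 11.03 and 10.93 in the vehicle controls, 10.70 and 10.78 in the E2 controls, 11.00 and 10.89 with FOXL2 siRNA and vehicle, and 11.16 and 11.01 with FOXL2 siRNA and E2. All of its arrays lay within 0.45 of each other. Its change with E2 was 0.35 (SE 0.095, adjusted p = 0.0973), called with the block (adjusted p = 0.0174), and with the control labels exchanged it was 0.10 (block adjusted p = 0.481). Both of its probes moved the same way there, by 0.31 and 0.50.

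**Figure D2:**
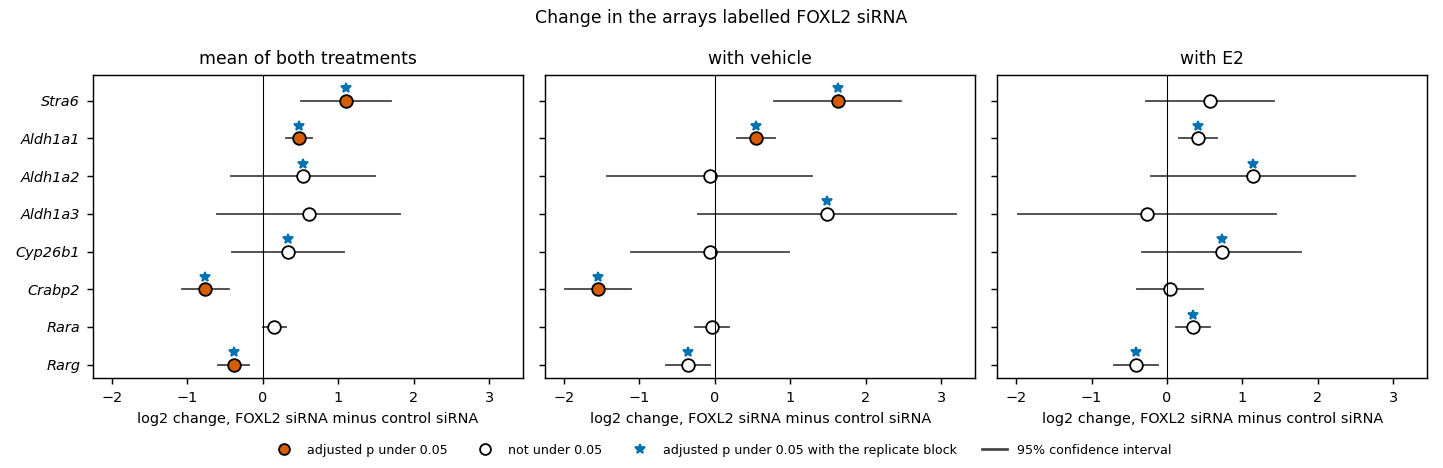
Log2 change between arrays labelled FOXL2 siRNA and control siRNA for the 8 members tested, over both treatments, with vehicle and with E2 (points, estimates from limma; bars, 95% confidence intervals; filled, adjusted p under 0.05; star, adjusted p under 0.05 with the replicate block). Stra6 and Aldh1a1 lie to the right and Crabp2 and Rarg to the left of 0 over both treatments, and the Crabp2 value of -1.55 with vehicle is near 0 with E2.

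By treatment, 3 of the 8 members (Stra6, Aldh1a1 and Crabp2) were called with vehicle, where 6.56% of all genes were. After the exchange of the control labels, 1 of them (Aldh1a1) was, where 731 of the 15637 genes were. With the exchange and the block, 4 members were called with vehicle (Cyp26b1, Aldh1a1, Crabp2 and Stra6), where 2710 of the 15637 genes were. With E2 none of the 8 was called by limma, where 4.39% of all genes were. At an unadjusted p under 0.05 there were 3 members and 2589 of the 15637 genes. The fit with the replicate block called 6 of 8 members over both treatments, 5 with vehicle and 5 with E2, where 27.7%, 18.7% and 14.9% of all genes were called. By the rule of the study for E2 targets, a change of at least 1 that exceeds 2 times the sum of both SDs, Aldh1a3, Crabp2 and Stra6 passed with vehicle, where 2.94% of all genes did. None passed with E2, where 2.35% of all genes did. That rule has no p-value.

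E2 was compared next, first with the labels as deposited. None of the 8 members was called by limma for E2 with control siRNA, with FOXL2 siRNA, or for the difference between both, where 0.0192%, 0.0128% and 0.243% of all genes were. At an unadjusted p under 0.05 the counts were 2, 1 and 2, where 716, 478 and 767 of the 15637 genes were. The block called Crabp2 in each of the 3 comparisons, and Cyp26b1 in the last of them, where it called 1.16%, 0.614% and 2.12% of all genes. The rule of the study picked none of the members with either siRNA, where it picked 0.454% and 0.217% of all genes.

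Crabp2 was lower with E2 in both replicates with control siRNA, with changes of -0.85 and -0.74. With FOXL2 siRNA it was higher in both, with changes of 0.76 and 0.83. The mean change was -0.80 in the first case (SE 0.19, adjusted p = 0.596). It was 0.79 in the second (SE 0.19, adjusted p = 0.701). With the block both were called (adjusted p = 0.00713 and 0.00975). The difference between them was 1.59 (SE 0.27, adjusted p = 0.108), and with the block it was called (adjusted p = 0.000343). Cyp26b1 changed by -0.79 and -0.24 with control siRNA and by 0.31 and 0.23 with FOXL2 siRNA. The difference between its mean changes was 0.79 (SE 0.64, adjusted p = 1.00), and with the block it was called (adjusted p = 0.0217). These differences rest on the E2 labels of the control arrays. With those exchanged, the difference was -0.0012 for Crabp2 (block adjusted p = 1.00) and -0.24 for Cyp26b1 (block adjusted p = 0.859). There the block called 0 of the 8 members, where it called 8 of the 15637 genes.

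Rara, Stra6, Aldh1a1 and Aldh1a3 also changed with E2 in opposite directions by siRNA in each replicate, but were not called, with or without the block. For Rara the mean changes were -0.24 with control siRNA and 0.14 with FOXL2 siRNA, and the difference was 0.38 (95% interval 0.07 to 0.69, adjusted p = 0.830). For Stra6 they were 0.53 and -0.52, with a difference of -1.05 (95% interval -2.25 to 0.14, adjusted p = 1.00). For Aldh1a3 the replicates gave 0.10 and 2.35 with control siRNA and -0.92 and -0.12 with FOXL2 siRNA, and the difference of -1.74 (95% interval -4.16 to 0.68, adjusted p = 1.00) was the largest in size among the members. With the control labels exchanged, the differences were -0.099 for Rara, 0.0095 for Stra6 and 0.71 for Aldh1a3, none called. Aldh1a1 and Rarg moved the least with E2. Aldh1a1 changed by 0.04 (95% interval -0.21 to 0.29) with control siRNA and by -0.09 (95% interval -0.34 to 0.16) with FOXL2 siRNA, and the corresponding values of Rarg were -0.04 (95% interval -0.33 to 0.25) and -0.09 (95% interval -0.38 to 0.20). The intervals of Aldh1a2 and Aldh1a3 were far wider. For Aldh1a3 with control siRNA the interval ran from -0.48 to 2.94.

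**Figure D3:**
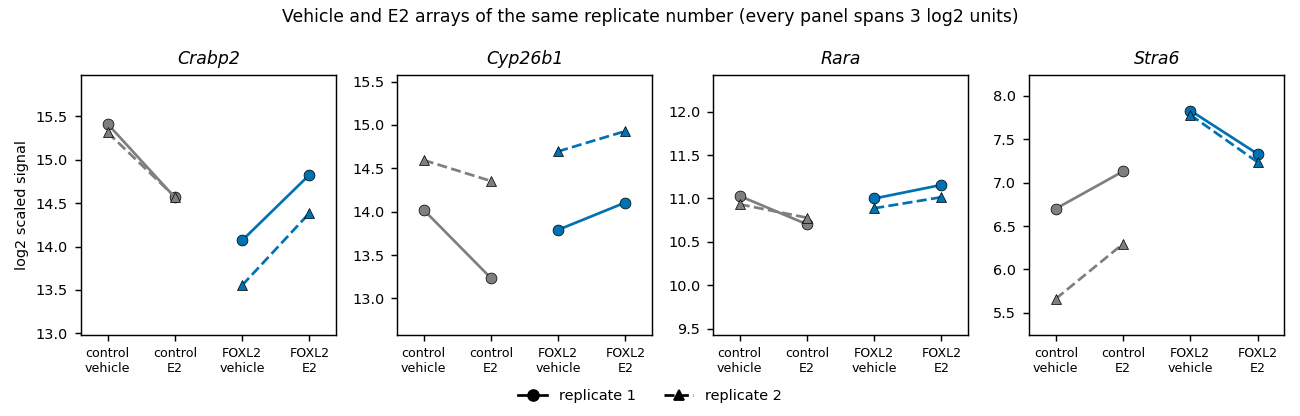
Log2 scaled signal of Crabp2, Cyp26b1, Rara and Stra6 on vehicle and E2 arrays, with arrays of the same siRNA and replicate number joined by a line (circle and solid line, replicate 1; triangle and dashed line, replicate 2). Lines slope one way with control siRNA and the other way with FOXL2 siRNA for all 4 genes, with changes of -0.85 and -0.74 against 0.76 and 0.83 for Crabp2. With the control labels exchanged the control lines would run the other way.

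**Figure D4:**
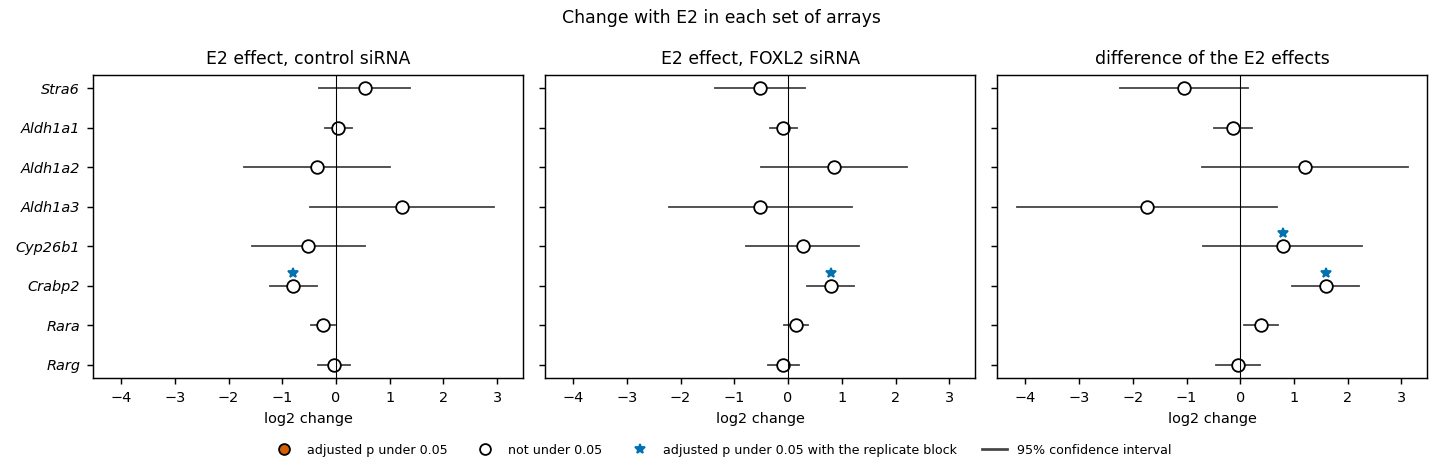
Log2 change with E2 against vehicle for the 8 members tested, in the arrays labelled control siRNA, in those labelled FOXL2 siRNA, and as the difference between both (points, estimates from limma; bars, 95% confidence intervals; star, adjusted p under 0.05 with the replicate block). No point is filled, since no adjusted p was under 0.05 without the block.

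The rest of the pathway was read from 3 lists. The first holds 18 genes of retinol transport and metabolism, of which 10 were tested. Over both treatments 1 rose, 1 fell and 8 did not pass, where 6.40% of all genes rose and 6.18% fell, and the median change of the 10 was 0.17. With vehicle the counts were the same, where 3.63% rose and 2.94% fell. The block called 4 of the 10 with vehicle, where 18.7% of all genes were called. Rdh10, the dehydrogenase of the first oxidation step, gave 6.57 and 6.54 in the controls with vehicle, 6.88 and 6.06 with E2, 5.08 and 5.03 with FOXL2 siRNA and vehicle, and 5.66 and 5.43 with E2. Its groups did not overlap, and it fell by 1.21 over both treatments (SE 0.19, adjusted p = 0.00598), to 43.1% of the control. Adh1, an alcohol dehydrogenase that accepts retinol, rose by 0.63 (SE 0.14, adjusted p = 0.0278), a factor of 1.55, and lay between 14.40 and 15.02 with control siRNA and between 14.92 and 15.47 with FOXL2 siRNA. With E2 neither was called by limma. There 2 of the 10 had an unadjusted p under 0.05, as did 2589 of the 15637 genes. The block called both Rdh10 at -0.93 (adjusted p = 0.0122) and Adh1 at 0.38 (adjusted p = 0.0348) with E2. Stra6 and Aldh1a1, at both ends of the route from retinol to retinoic acid, rose. Of the genes called between them, Rdh10 fell and Adh1 rose, so that step had no single direction. Aldh1a2 and Aldh1a3, of the same step as Aldh1a1, were not called over both treatments without the block.

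The second list holds 9 genes of RXR partners and coregulators, and all were tested. Over both treatments and with vehicle, 0 rose, 1 fell and 8 did not pass, where 6.18% and 2.94% of all genes fell, and the median change over both was -0.08. The gene was Nrip1, a corepressor of nuclear receptors that is needed for ovulation. It gave 10.02 and 9.90 in the controls with vehicle, 9.90 and 9.68 with E2, 9.17 and 8.93 with FOXL2 siRNA and vehicle, and 9.42 and 9.13 with E2, and fell by 0.71 (SE 0.10, adjusted p = 0.00388). With E2 its change of -0.52 was called with the block only (adjusted p = 0.00195). The third list holds 10 genes that retinoic acid induces in other cells. Of these, 5 were tested and 0 were called by limma in any comparison, and the median change over both treatments was 0.07. There 0 of the 5 had an unadjusted p under 0.05, beside 4195 of the 15637 genes. Stra8, Hoxb1 and Rarres1 were well above background on no array. No gene of the 3 lists was called by limma for E2 or for the difference of the E2 effects, with or without the block, and none had an unadjusted p under 0.05 there.

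With the block, 8 of the 24 tested list genes were called over both treatments, where 27.7% of all genes were. The 5 not called without it are named here after their values were seen. They were Dhrs3, which turns retinaldehyde back into retinol (-0.63, adjusted p = 0.018), Adh7 (0.84, adjusted p = 0.000355), the fatty acid and retinoic acid carrier Fabp5 (0.19, adjusted p = 0.0291), the receptor partner Rxra (-0.38, adjusted p = 0.0234) and Meis2 (-0.31, adjusted p = 0.0366).

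**Figure D5:**
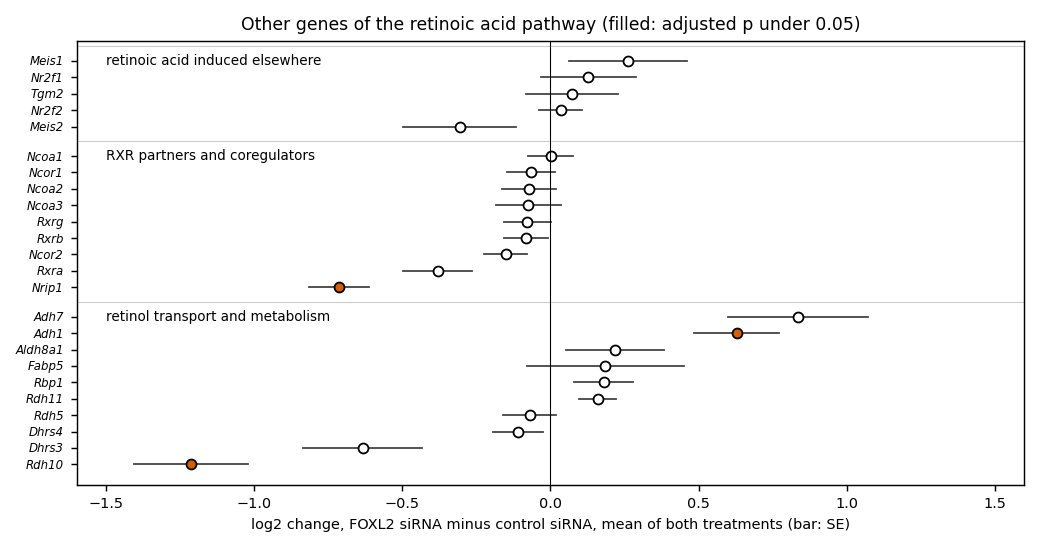
Log2 change over both treatments between arrays labelled FOXL2 siRNA and control siRNA for the 24 tested genes of the 3 pathway lists (points, estimates from limma; bars, standard errors; filled, adjusted p under 0.05). Rdh10 at -1.21 and Nrip1 at -0.71 lie to the left, Adh1 at 0.63 lies to the right, and the genes induced by retinoic acid elsewhere lie within 0.31 of 0.

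Markers of other cell types were measured beside these genes. Of all genes, 6.40% rose and 6.18% fell over both treatments. Of the Sertoli cell markers, Sox9, Sox8 and Dhh rose, and Ptgds and Cldn11 were not called without the block. Gata1 was above background on no control array and passed the filter only through the arrays labelled FOXL2 siRNA, so it is not counted. For the list, Gata1 included, the log2 of the summed signal was 11.46 to 11.62 in the vehicle controls and 11.77 to 11.91 in the E2 controls. It was 12.82 to 12.83 with FOXL2 siRNA and vehicle and 12.53 to 12.66 with FOXL2 siRNA and E2. Of the markers of ovarian surface epithelium and mesothelium, 3 of 6 tested rose, and their sum was 10.15 to 10.37, 10.55 to 10.81, 11.78 to 11.81 and 11.46 to 11.57 in the same order. All genes of both lists were well above background on some arrays. Of the stroma markers, 1 of 4 tested rose, their sum was 12.63 to 13.45, 12.92 to 13.44, 13.19 to 13.94 and 13.07 to 13.96, and Pdgfra and Tcf21 were well above background on no array. The sums of the Sertoli and surface epithelium lists were lowest in the vehicle controls and highest with FOXL2 siRNA and vehicle. The group means of Stra6 and of Aldh1a1 had the same order. A highest sum with FOXL2 siRNA and vehicle was not particular to these lists. The granulosa cell sum was 16.68 to 16.81, 16.74 to 16.74, 17.03 to 17.14 and 16.94 to 17.05 in the same order of groups. The endothelium sum was 10.29 to 10.83, 10.11 to 10.54, 10.89 to 10.93 and 10.64 to 10.72. The part of any of these cells in the changes of Stra6 and Aldh1a1 was not tested. Of the 9 granulosa cell markers 7 were tested, of which Inhbb rose and Fst and Esr2 fell, and Amh and Fshr were well above background on no array. With the block, 5 of these 7 were called over both treatments, as were 5 of 6 surface epithelium and 4 of 4 stroma markers. Of the theca, oocyte, macrophage and endothelium markers, 2, 2, 4 and 2 were tested and 0 were called by limma over both treatments, with 1, 0, 1 and 1 at an unadjusted p under 0.05 and 1 of each list called with the block, where 27.7% of all genes were.

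The genes whose pattern was most like that of each called member were sought among 12614 genes, by Pearson correlation over the 8 arrays. This is a description with no test, since the arrays fall into groups. For Stra6 they were Il18 (r = 0.985), Vrk2 (0.977) and Dsg2 (0.973). For Aldh1a1 they were Nrg1 (r = 0.991), Mapre2 (0.989) and Map1b (0.989). For Crabp2 they were Zfp503 (r = 0.992), Mreg (0.985) and Mboat2 (0.981). For Rarg they were Nipal3 (r = 0.990), Evl (0.989) and Cmtm3 (0.988).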

How the data were processed

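Labelled RNA of the 8 samples was hybridised to Agilent one-colour mouse arrays, and the deposited scanner files give spot intensity that the scanner software had corrected for background. The deposited series table holds log2 values that the authors scaled to the 75th percentile, and it served as an alternative. It is not centred over arrays, and its medians run from -4.24 to -3.95. Among its rows of a single probe, 98.6 to 98.8% of the values lie within 0.001 of the log2 processed intensity, once a constant of each array is taken out. Each array holds 62976 spots, 3671 of them controls. Control spots and 42 probes with flagged spots were left out. Here the processed intensity was averaged over spots, scaled to the 75th percentile of the array and averaged over the probes of a gene, genes with a median scaled signal under 10 were dropped, and log2 values were fitted with limma 3.58.1 in R 4.3.3 (4 group means over the 8 arrays, empirical Bayes with an intensity trend, two-sided, Benjamini-Hochberg over 15637 genes). The fit was tested on simulated data. Groups, doses and the E2 status of each array follow the sample labels.

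The replicates came from different animals grown independently. Deviations from the group means of arrays with the same replicate number correlated at 0.327 to 0.445 in all 6 pairs of groups. The numbers were therefore taken to pair the arrays, and the replicate block is given where it changes the call of a member. Alternatives were normexp background correction (offset 50), quantile normalization, median centring, the series table, other filters, the brightest probe, no intensity trend, a fit of the compared groups only, the block and leaving out each array. Exchanging the vehicle and E2 labels of the control arrays was added after seeing the data. The members, the pathway and marker lists and the comparisons were chosen with earlier results of these data known. All members are described, and list genes are named where they passed the adjusted threshold unless stated. The values of 1 list gene are not reported here. Gene names were updated through RefSeq for 22349 of 24232 genes. Promoter sequences come from RefSeq on GRCm38.p6, while the array was designed on another build, and no probe coordinate is printed.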

Additional observations from a re-analysis of the deposited data

Results flagged for a closer look

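With the replicate block, the E2 effect was called as different between arrays labelled control siRNA and FOXL2 siRNA for 2 of the 8 members tested. There 332 of the 15637 genes (2.12%) were called. Without the block 0 of the 8 were called, where 38 genes (0.243%) were. For Crabp2 the difference was 1.59 on the log2 scale (95% interval 0.97 to 2.21 without the block), with adjusted p = 0.000343 with the replicate block and 0.108 without it, and its direction was the same in both replicates. The lowest and highest differences on leaving out 1 array, which leaves 1 array in a group, were 1.33 and 1.85. For Cyp26b1 the difference was 0.79 (95% interval -0.70 to 2.27 without the block), with adjusted p = 0.0217 with the block and 1.00 without it, and its direction was also the same in both replicates. Both results rest on the E2 labels of the control arrays. With those labels exchanged, the difference was -0.0012 for Crabp2 (adjusted p = 1.00, also with the block) and -0.24 for Cyp26b1 (adjusted p = 1.00, and 0.859 with the block). Neither was called, where 0 of the 15637 genes were called without the block and 8 with it.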

How the results depend on the processing

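The number of members called over both treatments was 4, and 2 with no intensity trend, where 1967 and 1521 of the 15637 genes were called. With vehicle the number of members was 3, where 1026 of the 15637 genes were called. It was 1 without the filter (736 of 24232 genes), 1 without the intensity trend (633 of 15637) and 5 with the replicate block (2928 of 15637). With the replicate block it was also 5 for FOXL2 siRNA with E2, 1 for E2 with control siRNA, 1 for E2 with FOXL2 siRNA and 2 for the difference of the E2 effects. The block changed no other call of a member than those given above. On leaving out 1 array, the changes over both treatments were 0.84 to 1.36 for Stra6 and 0.44 to 0.53 for Aldh1a1. They were -0.89 to -0.63 for Crabp2 and -0.46 to -0.30 for Rarg. With vehicle they were 1.11 to 2.15 for Stra6, 0.47 to 0.63 for Aldh1a1 and -1.81 to -1.29 for Crabp2. With no intensity trend, adjusted p was 0.0636 for Rarg and 0.0632 for Stra6 over both treatments. For Stra6 it was 0.0626 with no filter. With vehicle, the calls of Aldh1a1 and Stra6 were lost without the filter (adjusted p = 0.107 and 0.0825), without the intensity trend (0.0641 and 0.0855) and with only the groups compared (0.0849 and 0.0713). Aldh1a1 was also lost with quantile normalization (0.0854), and Aldh1a3 was gained with only the groups compared (0.0492). The calls of Crabp2 over both treatments and with vehicle held under every alternative listed in the methods, but the one with vehicle did not hold with the control labels exchanged. The E2 effect of Rarg with control siRNA turned to 0.033 with normexp background, and that of Aldh1a1 with FOXL2 siRNA went to 0 with quantile normalization. The cause was not tested.

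Exchanging the vehicle and E2 labels of the control arrays, chosen after seeing the data, left all changes over both treatments as they were. The number of members called with vehicle went to 1, where 731 of the 15637 genes were called. With the labels exchanged and the block, the number was 4 with vehicle, 5 with E2, 1 for E2 with control siRNA and 1 for E2 with FOXL2 siRNA. Of all genes, 2710, 2521, 182 and 96 were called there. Changes with vehicle that turned were 0.45 for Cyp26b1, 0.28 for Aldh1a2 and 0.20 for Rara, and with E2 0.96 for Aldh1a3 and -0.76 for Crabp2. The E2 effects with control siRNA turn by construction, to 0.51 for Cyp26b1, -0.045 for Aldh1a1, 0.35 for Aldh1a2, -1.23 for Aldh1a3, 0.24 for Rara, 0.038 for Rarg, 0.80 for Crabp2 and -0.53 for Stra6. Differences of the E2 effects turned to -0.24 for Cyp26b1, 0.71 for Aldh1a3, -0.099 for Rara, -0.0012 for Crabp2 and 0.0095 for Stra6.

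Changes that took both signs on leaving out 1 array, none of them called in the fit to all arrays, were as follows. Over both treatments that of Aldh1a3 ran from -0.039 to 1.26. With vehicle Cyp26b1 ran from -0.52 to 0.39, Aldh1a2 from -0.76 to 0.62 and Rara from -0.093 to 0.019. With E2 Aldh1a3 ran from -1.56 to 1.04 and Crabp2 from -0.18 to 0.26. For E2 with control siRNA Cyp26b1 ran from -1.07 to 0.046, Aldh1a1 from -0.043 to 0.13, Aldh1a2 from -1.04 to 0.34, Aldh1a3 from -0.072 to 2.52 and Rarg from -0.075 to 0.00018. For E2 with FOXL2 siRNA Cyp26b1 ran from -0.18 to 0.73 and Rarg from -0.24 to 0.071. The difference of the E2 effects of Rarg ran from -0.21 to 0.11. Over all genes, the counts called over both treatments, with vehicle, with E2, for E2 with either siRNA and for the difference were 1967, 1026, 686, 3, 2 and 38. With the block they were 4326, 2928, 2329, 182, 96 and 332.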

Other observations

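Outside the pathway, genes of the testis program stood higher on the arrays labelled FOXL2 siRNA. Over both treatments Sox9, the transcription factor that drives Sertoli cell fate, rose by 2.05, Sox8 by 1.72 and Dhh, a hedgehog ligand of Sertoli cells, by 1.04 on the log2 scale. Gata1 was not well above background on any control array and was at least 2.85-fold higher with vehicle and 1.97-fold higher with E2. It passed the filter only through the arrays where it is high, so no test is given. Ptgds, a prostaglandin D synthase, and Cldn11, a tight junction protein, differed by 0.69 and 0.59 and were called with the block only (adjusted p = 5.35e-05 and 0.0309). Of the surface epithelium and mesothelium markers, Msln rose by 2.07, Upk3b by 1.47 and Upk1b by 1.30.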
